A study of Mus musculus with 2 samples.

Results

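The genes described here are 10 inflammatory cytokine genes, Il1a, Il1b, Il1rn, Il6, Il12a, Il12b, Il23a, Il18, Il27 and Tnf, taken by symbol from a deposited table of 23284 genes. All 10 were found. The table compares RNA from Ly6Chi and Ly6Clo macrophages of infarcted hearts of C57BL/6 mice, taken 3 days after the left anterior descending coronary artery was ligated. Each population was sequenced as 1 library. All cells therefore come from operated, infarcted animals, and no library of an uninjured heart is part of the comparison. The markers used to sort the cells beyond Ly6C, and the number of animals behind each library, were not stated in the sources used here.

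The readout is a signed score that the authors deposited for each gene to compare the libraries, called the statistic below, and the rank of its size. The table also has a column of values for each library, but the column codes match neither sample label, so these columns were not used. For the same reason no label ties the sign to a population, and genes are placed on the positive or the negative side of the statistic. Ly6c2, a gene of the Ly6C antigen that names the populations, had -1.78 per the authors' deposited table. The negative side would thus be that of Ly6Chi cells if this RNA followed the sort. That reading was not tested, and no population is assigned to a side below. Neither population has a second library, so there is no replicate error and no difference between genes could be set against a spread between replicates. The name of the table includes WAD, possibly for weighted average difference, a score that grows with expression level as well as with the ratio, but neither a header nor a label says so. A small value is therefore not read as a small change, and a gap between 2 genes is a gap in score, not in fold change. In bulk RNA, fewer cells of a type and less RNA per cell cannot be told apart.

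These genes encode secreted proteins that start and shape inflammation. IL-1 alpha and IL-1 beta signal through a shared receptor that the antagonist encoded by Il1rn blocks, and IL-1 beta and IL-18 are made as precursors that caspase-1 cleaves in the inflammasome. IL-12 and IL-23 share the subunit encoded by Il12b, which pairs with the product of Il12a in IL-12 and of Il23a in IL-23, while the product of Il27 pairs with that of Ebi3. After a coronary artery is blocked, monocytes enter the dying muscle and, with the macrophages they become, are a main source of IL-1 beta, TNF and IL-6.

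Most of the cytokine genes lay on the positive side. Of the 10, per the authors' deposited table, 8 were positive and 2 were negative, against 40.4% positive and 29.6% negative among all 23284 genes, where the rest were at exactly 0. Among the 8, the values of Il12a, Il27 and Il23a were shared with 191, 12 and 4 other genes, so their side says little about each gene. Whether low counts underlie these shared values was not tested. At a size of 0.5 or more, 3 members were positive (Il12b, Il6 and Il1b) and 1 was negative (Il1rn) per the authors' deposited table, against 3.77% and 0.988% of all genes. The same 3 positive members reached a size of 1, as did 0.709% of all genes, while no member reached -1, as 0.0644% of genes did, per the authors' deposited table. The members' median, computed from the authors' deposited table, was 0.26, and that of all 16302 genes with a value other than 0 was 0.01. The members were chosen with results of these data known, so these counts are a description. The same shares over all genes are the background for the counts per list below.

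**Figure D1:**
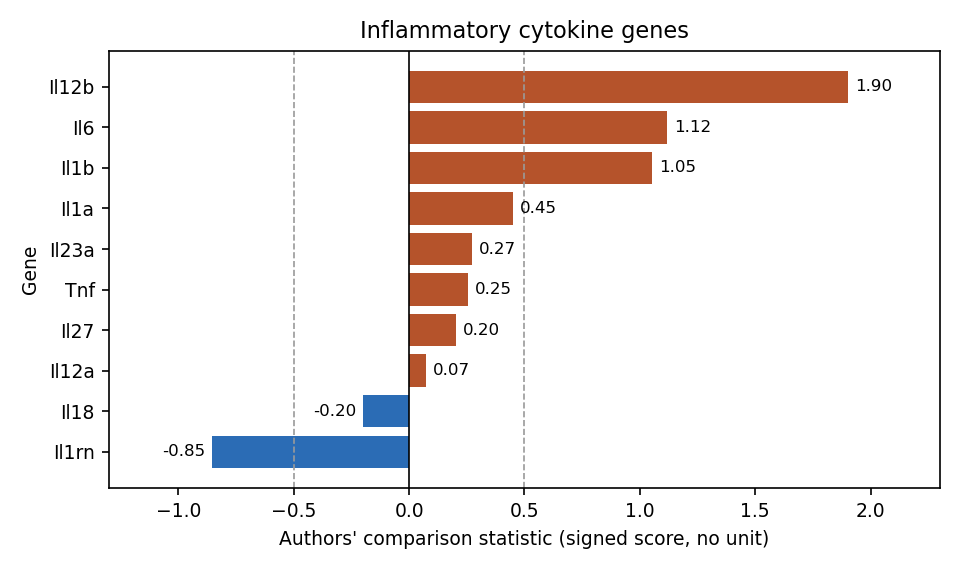
Statistic of each cytokine gene per the authors' deposited table (x axis, a signed score without unit), 1 bar per gene, with dashed lines at the size of 0.5 used for counting. Il12b has the longest bar at 1.90, and Il18 and Il1rn are the genes with bars on the negative side, at -0.20 and -0.85.

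The 3 leading members were Il12b, Il6 and Il1b. Il12b, the shared subunit of IL-12 and IL-23, stood at 1.90 with rank 13 of 23284 genes per the authors' deposited table. Il6, which encodes a cytokine that drives the acute-phase response and STAT3 signalling, stood at 1.12 with rank 128 per the same authors' deposited table. Il1b reached 1.05 and rank 154 per the authors' deposited table. No other gene shared any of these 3 values. Their upstream windows, the 250 bases before the RefSeq start on GRCm38.p6 (the assembly also named mm10), are shown because these genes stood furthest to the positive side. The Il12b window lies at chr11:44399813-44400062 on the plus strand, the Il6 window at chr5:30012864-30013113 on the plus strand and the Il1b window at chr2:129371140-129371389 on the minus strand. Capitals mark every match to the motifs of NF-kB, AP-1, C/EBP and IRF factors or to the TATA box.
Il12b: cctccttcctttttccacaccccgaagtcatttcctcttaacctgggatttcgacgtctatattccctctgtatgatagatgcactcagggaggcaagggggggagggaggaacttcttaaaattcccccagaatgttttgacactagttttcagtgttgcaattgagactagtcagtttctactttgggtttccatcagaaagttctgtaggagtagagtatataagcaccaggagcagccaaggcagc
Il6: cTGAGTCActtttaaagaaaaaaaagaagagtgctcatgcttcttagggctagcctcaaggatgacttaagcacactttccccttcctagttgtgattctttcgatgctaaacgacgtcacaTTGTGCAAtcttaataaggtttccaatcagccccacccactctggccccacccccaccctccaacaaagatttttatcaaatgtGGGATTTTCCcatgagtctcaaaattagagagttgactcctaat
Il1b: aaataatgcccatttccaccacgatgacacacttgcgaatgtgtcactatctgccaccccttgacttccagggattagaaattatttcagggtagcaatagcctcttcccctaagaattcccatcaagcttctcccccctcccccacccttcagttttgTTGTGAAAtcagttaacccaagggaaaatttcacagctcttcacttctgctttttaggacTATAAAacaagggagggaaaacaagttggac
Il6 held a motif of each of 3 factor families: AP-1 with its first base 249 bases before the start, C/EBP at 128 and NF-kB at 44, the last spelled GGGATTTTCC. Il1b held a C/EBP match at 91 bases and a TATA box at 31 bases before the start. Il12b held none of the motifs in this window, which says only that these letters are not in it.

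Among the 10 members, the genes of the IL-1 family parted by side. Il1a, at chromosome 2 from 129299610 to 129309972 on mm10 (GENCODE M21), scored 0.45 at rank 1369 per the authors' deposited table. Il1b lies close by, from 129364570 to 129371139, and its value of 1.05 was larger than that of Il1a by 0.61 per the authors' deposited table. Il1rn, the antagonist gene, lies on the same chromosome from 24336853 to 24351494 and had -0.85 with rank 313 per the authors' deposited table. Only 0.142% of all genes had a lower value there. The agonist gene Il1b and the antagonist gene Il1rn were thus 1.91 apart per the authors' deposited table, on opposite sides of 0. Il18, whose product amplifies interferon gamma production by lymphocytes, was the other negative member, at -0.20 and rank 4575 per the authors' deposited table. The gene lies on chromosome 9 from 50554827 to 50581840.

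The subunit genes of the IL-12 family were positive but far apart in size. Beside Il12b at 1.90, Il23a had 0.27 (rank 2975), Il27 had 0.20 (rank 4505) and Il12a had 0.07 (rank 10261.5) per the authors' deposited table. The subunits of IL-12 differed by 1.83 and those of IL-23 by 1.63 per the authors' deposited table, with Il12b the larger in both pairs. The value of Il12a was shared by 191 other genes, that of Il27 by 12 and that of Il23a by 4 per the authors' deposited table. The value of Il12a therefore does not set it apart from those genes. Ebi3, the partner of Il27, scored 0.64 at rank 625 per the authors' deposited table, so IL-27, like IL-12 and IL-23, had 1 subunit gene past 0.5 and 1 short of it. Il12b lies on chromosome 11 from 44400063 to 44414033, Il23a on chromosome 10 from 128296139 to 128298752, Il27 on chromosome 7 from 126589010 to 126594941 and Il12a on chromosome 3 from 68690644 to 68698547.

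Tnf, which encodes the cytokine that activates endothelium and NF-kB in many cells, scored 0.25 at rank 3330 per the authors' deposited table. The gene lies on chromosome 17 from 35199381 to 35202007, and Il6 on chromosome 5 from 30013114 to 30019981. In order of the statistic the members ran Il12b, Il6, Il1b, Il1a, Il23a, Tnf, Il27, Il12a, Il18 and Il1rn. The widest gaps between neighbours in that order lie below Il12b, below Il1b and above Il1rn. Il6 and Il1b stand close together, as do Il23a, Tnf and Il27. Members next to the size of 0.5 were Il1rn at -0.85 on the inside (on the positive side, Il1b at 1.05) and Il1a at 0.45 on the outside per the authors' deposited table.

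**Figure D2:**
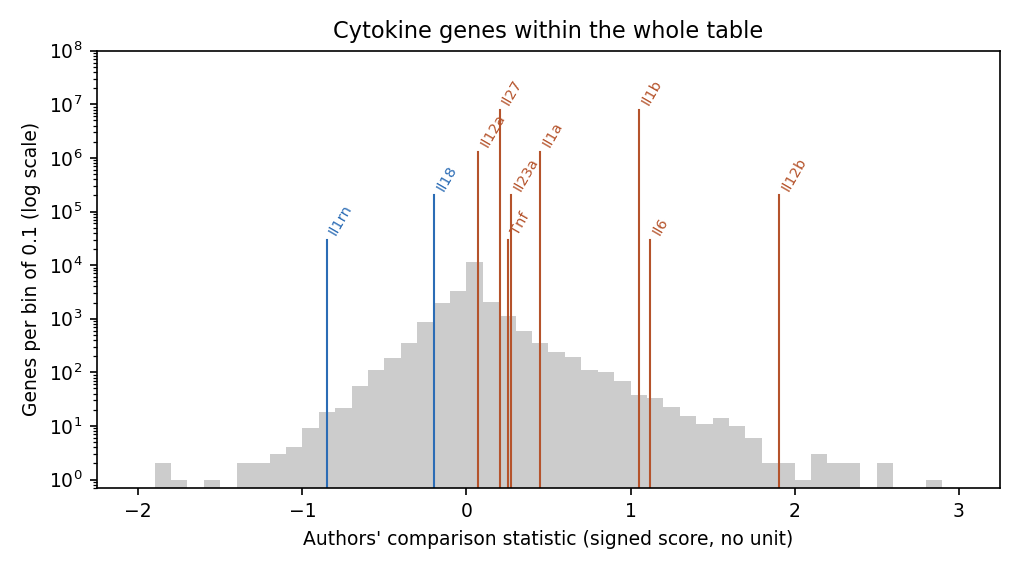
Number of genes per bin of the statistic over the whole authors' deposited table (grey bars, log scale), with a vertical line at each cytokine gene; line heights differ only to keep the labels apart. Il12b stands in the thin upper tail and Il1rn in the thin lower tail, while Il12a lies in the fullest bin beside 0.

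Receptor genes did not all share the side of their ligands. Of 15 receptor, decoy and binding protein genes, 12 were positive and 3 negative per the authors' deposited table, with a median of 0.17. A value of 0.5 or more was held by 2 of the 15, against 3.77% of all genes. Those 2 were Il1r2, the decoy receptor that traps IL-1, at 1.21 and Il18rap, the accessory chain of the IL-18 receptor, at 0.98 per the authors' deposited table. The signalling receptor gene Il1r1 had 0.24 and its accessory chain gene Il1rap -0.02 per the authors' deposited table. Il18bp, whose product binds and neutralises IL-18, had -0.42, on the same side as Il18, per the authors' deposited table. For IL-6, the receptor gene Il6ra had 0.12 and the shared signal chain gene Il6st 0.11 per the authors' deposited table. The receptor chain genes Il12rb2, Il12rb1 and Il27ra had 0.44, 0.08 and 0.44 per the authors' deposited table. The TNF receptor genes Tnfrsf1a and Tnfrsf1b had -0.04 and 0.24, the latter 0.01 below Tnf itself, per the authors' deposited table. The inhibitors of IL-1 therefore stood on opposite sides, each beyond 0.5 in size, with the decoy gene Il1r2 positive and the antagonist gene Il1rn negative.

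**Figure D3:**
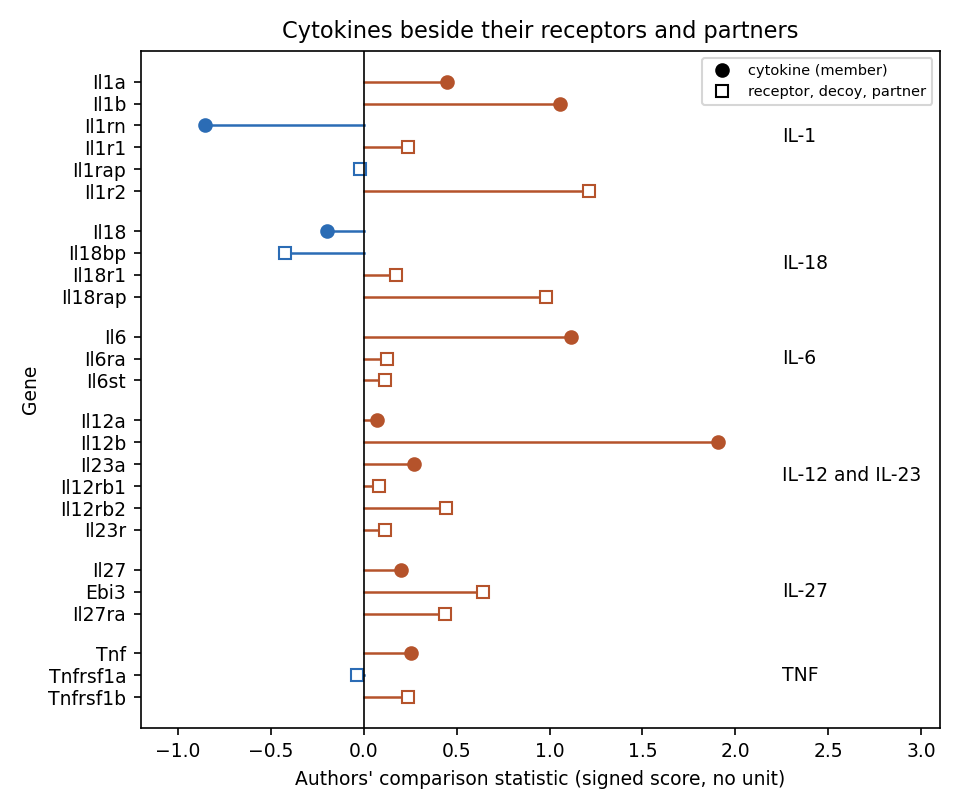
Statistic per the authors' deposited table (x axis) of each cytokine gene (filled circles) beside the genes of its receptors, decoys and partner subunits (open squares), grouped by cytokine system. Il1r2 at 1.21 lies with Il1b and opposite Il1rn, and both Il18 and Il18bp lie on the negative side.

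Genes that mature and release the cytokines were mostly positive and short of 0.5 in size, as most genes of the table were. Of 14 such genes, 11 lay above 0 and 3 below, with a median of 0.09, and none reached 0.5 in either direction, per the authors' deposited table. Of all genes, 3.77% reached 0.5 and 0.988% reached -0.5, so none in 14 does not set this list apart. Casp4, a caspase that senses intracellular lipopolysaccharide, had 0.37, the inflammasome sensor gene Nlrp3 0.36 and the DNA sensor gene Aim2 0.29 per the authors' deposited table. Mefv, which encodes pyrin, had -0.22 per the authors' deposited table. Casp1, whose product cleaves the IL-1 beta and IL-18 precursors, had 0.04, and Adam17, whose product sheds TNF from the cell surface, had 0.03 per the authors' deposited table. Casp1 and Adam17 thus stood nearer to 0 than Il1b, Il18 and Tnf did.

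Among pattern receptors and their adaptors, which act upstream of cytokine induction, more genes were negative than positive. Of 23 genes, 15 were negative and 8 positive per the authors' deposited table, against 29.6% and 40.4% of all genes. None of the 23 was at 0. Of the 16302 genes not at 0, 6903 were negative and 9399 positive. The median of the 23 was -0.05, and none had a size of 0.5 or more. Of all genes, 3.77% reached 0.5 and 0.988% reached -0.5, so none in 23 does not set this list apart. The largest were Tlr3, a sensor of double-stranded RNA, at 0.47, the adaptor gene Ticam2 at 0.43, the kinase scaffold gene Ikbkg at -0.35 and the kinase gene Ikbkb at 0.28 per the authors' deposited table.

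The transcription factors that induce cytokine genes were mostly positive. Of 30 genes, 23 were positive, 6 negative and 1 at 0, with a median of 0.26, per the authors' deposited table. Among the 30, 6 reached 0.5 and 2 reached -0.5, against 3.77% and 0.988% of all genes. Irf4, a factor of dendritic cells and alternatively activated macrophages, led at 1.56, followed by Stat4 at 1.05, the NF-kB cofactor gene Nfkbiz at 1.01 and the NF-kB subunit gene Rel at 0.80 per the authors' deposited table. The 2 factor genes past -0.5 were Jun at -0.56 and Hif1a at -0.52 per the authors' deposited table. The feedback inhibitors of the same pathway had a similar median. Of 20 such genes, 15 lay above 0 and 5 below, with a median of 0.27, per the authors' deposited table. Among the 20, 5 reached 0.5 and 1 reached -0.5, against 3.77% and 0.988% of all genes. Tnip3, which encodes a binding partner of the NF-kB inhibitor A20, had 1.49, Tnip1 0.68 and the cytokine-signalling suppressor gene Socs2 0.59, while Tollip, an inhibitor of IL-1 and Toll-like receptor signalling, had -0.56, per the authors' deposited table.

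Among 24 NF-kB target genes outside the cytokines, 20 lay above 0 and 4 below, with a median of 0.35, per the authors' deposited table. A value of 0.5 or more was held by 8 of the 24, against 3.77% of all genes. The list was led by Traf1, a signalling adaptor of TNF receptors, at 1.33, the chemokine gene Ccl5 at 0.86, the costimulatory receptor gene Cd40 at 0.84 and the adhesion molecule gene Icam1 at 0.72 per the authors' deposited table. Over all 170 pathway genes other than the members, 107 were positive, 49 negative and 14 at 0, per the authors' deposited table. Of all genes, 40.4% were positive and 29.6% negative, and the rest were at 0. Among the 170, 27 reached 0.5 and 3 reached -0.5, against 3.77% and 0.988% of all genes. Il10, a feedback inhibitor, is also among the secreted cytokines below and is counted once in the total of 170.

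Other cytokine genes gave a wider frame for the members. Of 23 other ligands of the IL-1, IL-6, IL-12 and TNF families, 13 were positive, 6 negative and 4 at 0 per the authors' deposited table. Their median was 0.14, and 5 of the 23 had 0.5 or more, against 3.77% of all genes. Tnfsf9, the ligand of the costimulatory receptor 4-1BB, had 1.11, Tnfsf4, the OX40 ligand, 0.90, and Lif, an IL-6 family cytokine, 0.78 per the authors' deposited table. Of 22 other secreted cytokines, 6 were positive, 7 negative and 9 at 0, with a median of -0.04, per the authors' deposited table. Il16 at 0.52 was the only one of these 22 past 0.5, against 3.77% of all genes. It was followed in size by Csf1 at 0.28, Tgfb1 at -0.23 and Il20 at 0.22 per the authors' deposited table. Ifng, Il4, Il17a and Il2, which lymphocytes make, were listed at 0 per the authors' deposited table. Among these 55 ligand genes Il12b and Il6 held the top places, Tnfsf9 came next and Il1b held place 4, and Il1rn held the lowest place. Il18 held place 51, above Tgfb1, Osm, Tnfsf12 and Il1rn.

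**Figure D4:**
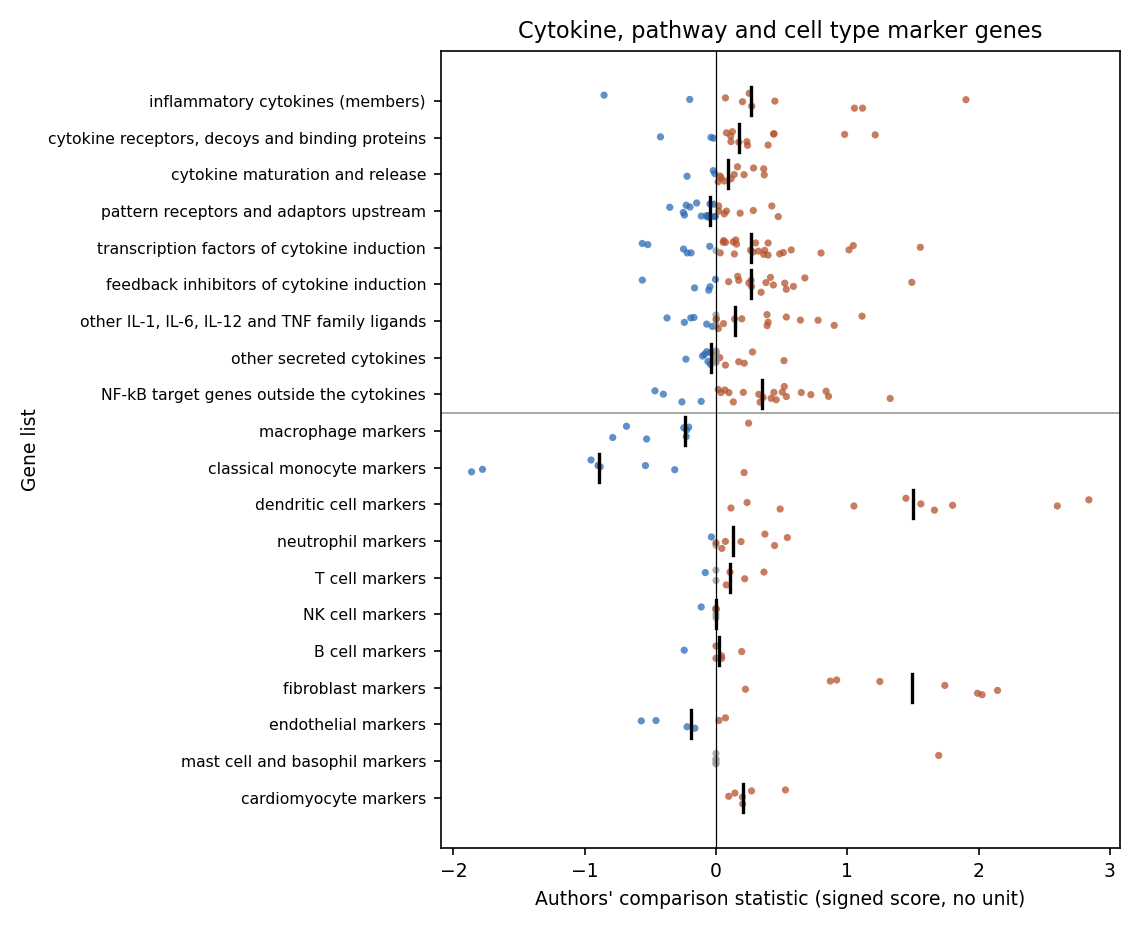
Statistic per the authors' deposited table (x axis) of every measured gene in each list (points), with a black bar at the median of genes not at 0 where there are 3 or more; pathway lists stand above the grey line and cell type markers below it. The cytokine genes spread from -0.85 to 1.90, and the dendritic cell and fibroblast markers all lie on the positive side.

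Markers of dendritic cells and fibroblasts lay on the same side as most cytokine genes. All 10 dendritic cell markers were positive, from 0.11 to 2.84, and 7 of them reached 1, per the authors' deposited table. All 8 fibroblast markers were positive, from 0.22 to 2.14, per the authors' deposited table. On the negative side lay 7 of 8 macrophage markers, from -0.79 for Fcgr1 upwards, and 7 of 8 classical monocyte markers, led by Chil3 (listed as Chi3l3) at -1.86 and Ly6c2 at -1.78, per the authors' deposited table. The exceptions were Csf1r at 0.25 and Ccr2 at 0.21 per the authors' deposited table. Neutrophil markers, which matter because neutrophils also express Il1b and Il1r2, had a median of 0.13 with 7 of 9 positive and S100a8 the largest at 0.54 per the authors' deposited table. Elane was listed at 0. Of 7 T cell and 7 NK cell markers none reached 0.5 in size per the authors' deposited table, and Cd3e, Cd3g, Ncr1, Gzma and Prf1 were listed at 0. All 6 cardiomyocyte and 5 of 6 B cell markers were positive, 4 of 6 endothelial markers were negative, and 5 of 6 mast cell and basophil markers were at 0, Kit standing at 1.70, per the authors' deposited table. The part of dendritic cells, fibroblasts and neutrophils in the values of Il12b, Il6 and Il1b was not tested. Because the statistic gives a difference and not a level, the labelled cell type could not be checked against the abundance of its markers.

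Neighbouring genes in the genome were compared with the members, because Il1a and Il1b are adjacent genes and Tnf lies in a cluster with its relatives. Tnf is flanked by Lta and Ltb, which encode lymphotoxins, at 0.20 and 0.39 per the authors' deposited table, and further out by Lst1 at -0.48 and Nfkbil1 at -0.02. Next to Il1a lies Ckap2l, a mitotic spindle gene, at 1.34 per the authors' deposited table, and beyond Il1b lies Sirpa, the receptor of the CD47 signal, at 0.04. The IL-1 family genes Il1f5 and Il1f10 beside Il1rn were listed at 0 per the authors' deposited table. Of 36 neighbours that are not members, 23 were positive, 9 negative and 4 at 0, per the authors' deposited table. Among all genes, 40.4% were positive and 29.6% negative, and the rest were at 0. A value of 0.5 or more was held by 3.77% of all genes and by 4 of the 36 neighbours. Besides Ckap2l these were Tyms, the thymidylate synthase gene beside Il6, at 0.75, Apof, an apolipoprotein gene near Il23a, at 0.73, and Ift80, a ciliary transport gene near Il12a, at 0.54 per the authors' deposited table. The median of the neighbours, 0.08, was below the members' 0.26. In RefSeq, Il18 overlaps Bco2 and Tex12, and Il27 overlaps Apobr, so reads counted without regard to strand could be shared between these genes, and the values of Il18 and Il27 are uncertain to that extent.

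Upstream motifs differed among the members. RefSeq start sites were matched for 8 of the 10 genes, giving 11 windows of 250 bases, since Il1rn has 3 starts (with overlap among their windows) and Il12a has 2. Matches were sought on both strands. The NF-kB motif (a 10-base consensus) was present in 1 of 11 windows, that of Il6, and in 3.90% of all 32851 windows. AP-1 (TGANTCA) was present in 3, in Il1a, Il1rn and Il6, and in 6.75% of all windows. C/EBP (TTNNGNAA) was present in 6 of the 11 and in 36.8% of all windows, and the TATA box (TATAAA) in 4 of the 11 and in 12.4%. The 6 windows with C/EBP belong to 5 of the 8 genes, since overlapping windows of Il1rn share a site. Il1a, Il1b and Tnf carried TATAAA 32, 31 and 29 bases before the start on the sense strand. The IRF motif (GAAANNGAA) was present in none of the 11 and in 7.13% of all windows. AP-1 and C/EBP matches occurred upstream of both the agonist gene Il1a, on the positive side, and the antagonist gene Il1rn, on the negative side. In Il1a both lay in the same window, while in Il1rn they lay in windows of different starts.

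Most members hold AU-rich pentamers in the 3' untranslated region. AU-rich elements are short repeats bound by decay factors such as the product of Zfp36, through which cytokine mRNAs are kept short-lived. Only letters were counted here, and whether they act as such elements was not tested. In GENCODE M21 transcripts, the members held a median of 5.5 copies of the pentamer ATTTA in the 3' untranslated region, and the median of 18193 genes of the table was 1. Tnf held 8 copies in 764 bases, and 5 copies of the longer nonamer TTATTTATT, with overlapping copies counted separately. Il6 held 6 in 427 bases, or 14.1 per kilobase, a density that 0.561% of all genes reach. Il12b held 6 in 797 bases and Il1b 4 in 459 bases. The nonamer was absent from Il12b, Il6 and Il1b, and besides Tnf only Il27, Il23a and Il12a held it. Il27 was the densest member, with 17.5 per kilobase in 285 bases, and Il1a, with 2.72 per kilobase, the sparsest of those that held any. Il1rn held none in 1306 bases, and Il18 held 1 in 123 bases. The members on the negative side therefore had the fewest copies, though by density Il18, at 8.13 per kilobase, was close to Il1b at 8.71. The 30-base stretches below are those richest in the pentamer, shown for Tnf and the leading members and for Il18 as a contrast, with the pentamer in capitals.
Tnf: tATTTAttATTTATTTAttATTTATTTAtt
Il12b: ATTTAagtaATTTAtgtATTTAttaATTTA
Il6: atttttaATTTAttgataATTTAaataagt
Il1b: ttacctATTTATTTAtgtATTTAttgattg
Il18: cccgaggctgcatgATTTAtagagtaaaca
On GRCm38 these lie at chr17:35199677-35199706 (minus strand), chr11:44413473-44413502 (plus), chr5:30019684-30019713 (plus), chr2:129364801-129364830 (minus) and chr9:50581797-50581826 (plus). Among mRNA decay factors, Zfp36 had -0.16, Zfp36l1 -0.05 and Zc3h12a, which encodes the RNase regnase-1 that degrades Il6 and Il12b mRNA through stem-loops, 0.52 per the authors' deposited table. The plot of pentamer density against the statistic shows the members with their values, with no relation tested.

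**Figure D5:**
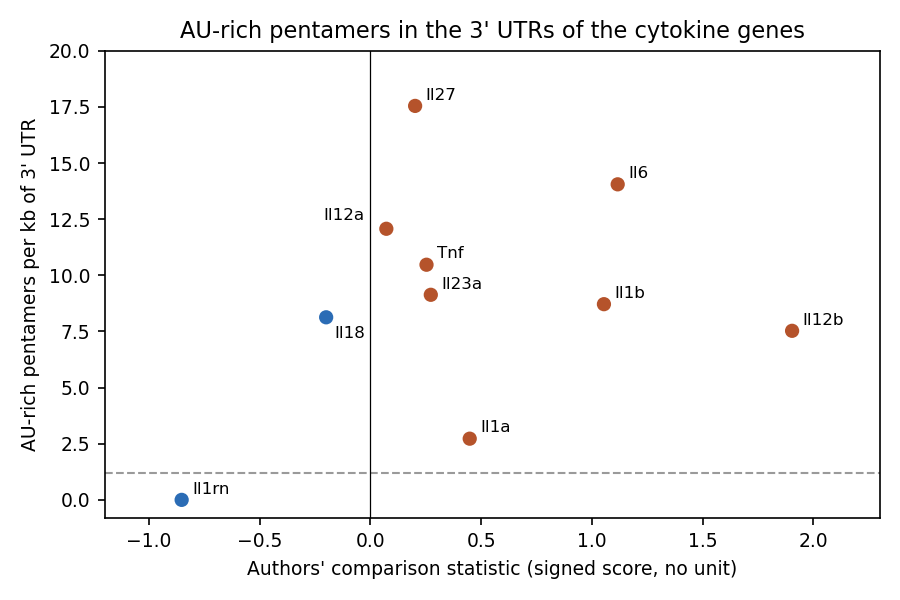
Pentamers per kilobase of 3' untranslated region (y axis) against the statistic per the authors' deposited table (x axis) for the 10 cytokine genes, with a dashed line at 1.18, the median density of all genes. Il1rn lies at 0 on the negative side, and the other 9 genes lie above that line.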

How the data were processed

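RNA of 1 library per population was sequenced. CASAVA 1.8.2 and TopHat were used with build mm10, per the submitters' processing notes; the counting program, annotation and strand handling were not stated in the sources used here. The statistic is a signed score per gene that the authors deposited, with no stated formula, unit or direction, and its rank was deposited beside it. Ranks computed anew from the score's size differed from it by 0 at most. The 2 columns of values per library match no sample label and were not used, so levels and depth were not analysed here, and the precision behind each score is unknown.

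The members and all lists were chosen with earlier results of these data known. Genes were matched by symbol or older symbol; in the list of other family ligands, 4 newer IL-1 family symbols name genes already counted under older ones. Sizes of 0.5 and 1 served only to count genes. The rule for named genes took the members, a fixed set of receptors, partners and enzymes that act on them (without Il18r1 and Il23r), up to 4 genes of largest size per list, up to 2 per marker list, and the 2 measured neighbours on each side. Only neighbours of size 0.5 or more and some around Il1a, Il1b, Il1rn and Tnf are printed, a choice made after their values were seen, and the others are only counted. S100a8 and Fcgr1 fall under that rule. Zfp36, Zfp36l1, Zc3h12a, Jun, Hif1a, Osm, Tnfsf12, Csf1r, Ccr2 and the genes listed at 0 were named after their values were seen. Promoter windows came from RefSeq GRCm38.p6. The 3' untranslated region of each gene was that of the GENCODE M21 basic transcript with the longest coding sequence; this description was added after seeing the data. No test was run, since neither population has a second library. The counting, the median and the motif search were tested on simulated data, and the other steps were not. The tools were pandas 2.3.3 and NumPy 2.4.6 under Python 3.11.15, with SciPy 1.17.1 for intervals and Matplotlib 3.10.9 for plots.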

Additional observations from a re-analysis of the deposited data

How the results depend on the processing

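No paired analysis was possible because neither population has a second library, and for the same reason no library could be left out. Settings that need values per library (pseudocount, filter, scaling) were not run. With the size lowered to 0.25, 6 members instead of 3 were positive, Il1a, Il23a and Tnf being added, against 9.90% of all genes. With the size raised to 1, or without Il1rn, 0 members instead of 1 were negative. The members' median of 0.26 stayed positive as a mean (0.43), without Il1rn (0.27) and without the IL-12 family (0.35); no member is at 0. With the size raised from 0.5 to 1, positive genes fell from 2 to 1 among receptors, from 6 to 3 among transcription factors, from 5 to 1 among feedback inhibitors, from 5 to 1 among other family ligands, from 1 to 0 among other secreted cytokines and from 8 to 1 among NF-kB targets. Negative genes went from 2 to 0 among transcription factors and from 1 to 0 among feedback inhibitors. A looser NF-kB motif was found in 4 of the 11 windows instead of 1, and in 23.2% of all windows. Within the nearest 100 bases, AP-1 was found in 1 window instead of 3, and in 2.73% of all windows. More pentamers than the median gene were held by 8 of 10 members, and by 9 per kilobase, chosen after seeing the data, while the longer nonamer was held by 4, and by 7.11% of all genes. Each of the 8 held at least the 3 copies of Il1a, as did 33.4% of all genes. Each of the 9 was at least as dense as Il1a, as were 24.8% of all genes. Alternatives change which genes or letters are counted, not the scores, whose error is unknown with 1 library per population.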
